A study of Mus musculus with 8 samples.

Results

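Basement membranes are thin sheets of matrix on which epithelia rest and which wrap vessels, nerves and muscle. Their main building blocks are laminins, each a trimer of an alpha, a beta and a gamma chain that assembles inside the cell before secretion, and collagen IV, a trimer that in most tissues holds alpha 1 and alpha 2 chains. The heparan sulfate proteoglycans perlecan and agrin bind laminins and bind growth factors. In tumors of epithelial origin, including those of the lung, cells meet these sheets at the tissue boundary and around vessels, and many tumor cells secrete chains of their own.

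The genes described here encode 5 laminin chains (Lama1, Lama5, Lamb1, Lamb2 and Lamc1), perlecan (Hspg2), agrin (Agrn) and 3 collagen IV chains (Col4a1, Col4a2 and Col4a5). They were chosen by gene symbol and are 10 of the 22691 genes in the deposited count table. RNA was sequenced from mouse small cell lung cancer (SCLC) cells grown as lines from primary lung tumors. Every library carried the same labelled genotype, invCAG-Mycl-Luc; Rb1-/-; Trp53 -/-, on an FVB/n; 129/Ola background, so the Mycl transgene and the losses are shared by both groups. Each of 4 cultures gave 1 library with an empty vector and 1 library after transfer of mouse Nfib for overexpression. Nfib encodes a nuclear factor I protein, which binds DNA and regulates transcription. The sample descriptions name the lines as Lmyc1 for pair 1, Lmyc3 for pairs 2 and 3 and Lmyc5 for pair 4, with the word old for pairs 1 and 2 and new for pairs 3 and 4, which no source used here explains. The design thus asks how each chain changed with Nfib within a pair, and how the chains differed between cultures. There are 4 libraries per group from 3 named lines, and no label says that the libraries of a group came from separate animals, so the spread that p-values measure is that of these 8 libraries and may be technical.

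Library totals ran from 21815264 to 29934021 counts, and a count of 0 allowed up to 3 counts, which is 0.102 to 0.142 counts-per-million (CPM) depending on the library (counting error only). Nfib itself was at 71.9 to 486 CPM with the empty vector and at 1280 to 4675 CPM in the Nfib libraries, higher in 4 of 4 pairs. Chga, which encodes the neuroendocrine granule protein chromogranin A, was at 425 CPM or more in every library. The 2 pairs labelled Lmyc3 were not alike. Across all genes, old Lmyc3 deviations from the group mean correlated with new ones of the other group at r = -0.48 and -0.53. Between libraries of different lines r ran from -0.53 to 0.06, and deviations that sum to 0 within a group pull r down. The count of members called with Nfib is therefore also given without the 2 Lmyc3 pairs.

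The promoters of Lama5 and Hspg2 are shown because these were the 2 tested chains with a higher level in the Nfib library of all 4 pairs, that of Agrn because this proteoglycan was among the chains with no detected change, and a short stretch upstream of Col4a1 because it held 2 neighbouring copies of the motif searched. Nuclear factor I proteins are known to bind TTGGC, or the longer palindrome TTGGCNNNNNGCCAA. Capitals mark TTGGC or, on the other strand, GCCAA. Sequences are from RefSeq on build GRCm38.p6, 5′ to 3′ on the strand of the gene, and end at the last base before the start of the gene as the count table gives it. The Col4a1 stretch instead lies within the span of its neighbour Col4a2, which is read from the opposite strand.
Lama5, chr2:180225860-180226109, minus strand: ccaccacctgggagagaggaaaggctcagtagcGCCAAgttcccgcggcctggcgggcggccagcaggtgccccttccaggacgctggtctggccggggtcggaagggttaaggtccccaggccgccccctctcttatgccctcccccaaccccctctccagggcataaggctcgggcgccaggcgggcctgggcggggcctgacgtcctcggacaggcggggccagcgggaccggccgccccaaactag
Hspg2, chr4:137468553-137468768, plus strand: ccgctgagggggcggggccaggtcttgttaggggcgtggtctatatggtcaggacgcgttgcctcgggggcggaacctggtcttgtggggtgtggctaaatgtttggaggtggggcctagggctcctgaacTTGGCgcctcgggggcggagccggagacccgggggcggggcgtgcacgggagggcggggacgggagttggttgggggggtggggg
Agrn, chr4:156197489-156197738, minus strand: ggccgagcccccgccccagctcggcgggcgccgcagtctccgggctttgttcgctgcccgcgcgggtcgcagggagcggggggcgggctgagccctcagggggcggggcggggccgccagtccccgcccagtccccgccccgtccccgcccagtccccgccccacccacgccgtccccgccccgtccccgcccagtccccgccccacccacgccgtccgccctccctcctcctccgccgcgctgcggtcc
Col4a1, chr8:11312950-11312979, minus strand: tgcccgggaTTGGCgaGCCAAggggctcgt

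In windows of 250 bases upstream of each RefSeq start, TTGGC on either strand was found in 41.5% of 32851 windows of all genes. Among the members it was in 6 of 9 windows, or in 6 of the 8 members that had an entry. The Lama5 match began 217 bases before the start, the Hspg2 match 119 bases before it, and Col4a1 had 3 matches, at 240, 144 and 137 bases. Lamb1, Col4a2 and Col4a5 had 1 match each, and the windows of Lamb2 and Agrn had none of these letters. The full palindrome was in none of the members' windows and in 0.037% of all windows. Windows with 2 or more copies made up 11.5% of all windows. A match of 5 letters is a description of the sequence and not a site of binding.

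Gamma chains were the most and beta chains the least abundant laminin transcripts in every library. Compared per kb of merged exon, which allows levels of different genes to be set side by side, the summed gamma chains lay between 5.45 and 11.7 CPM per kb in the 8 libraries, the summed alpha chains between 1.96 and 7.84, and the summed beta chains between 0.0686 and 1.48. These sums take in all 5 alpha, 3 beta and 3 gamma genes. Lama5 made up 81.3 to 99.7% of the alpha sum and Lamc1 82.7 to 99.9% of the gamma sum. Gamma transcript exceeded beta transcript 7.71 to 133 times, with the smallest ratio in the empty vector library of pair 1 and the largest in the Nfib library of pair 3.

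**Figure D1:**
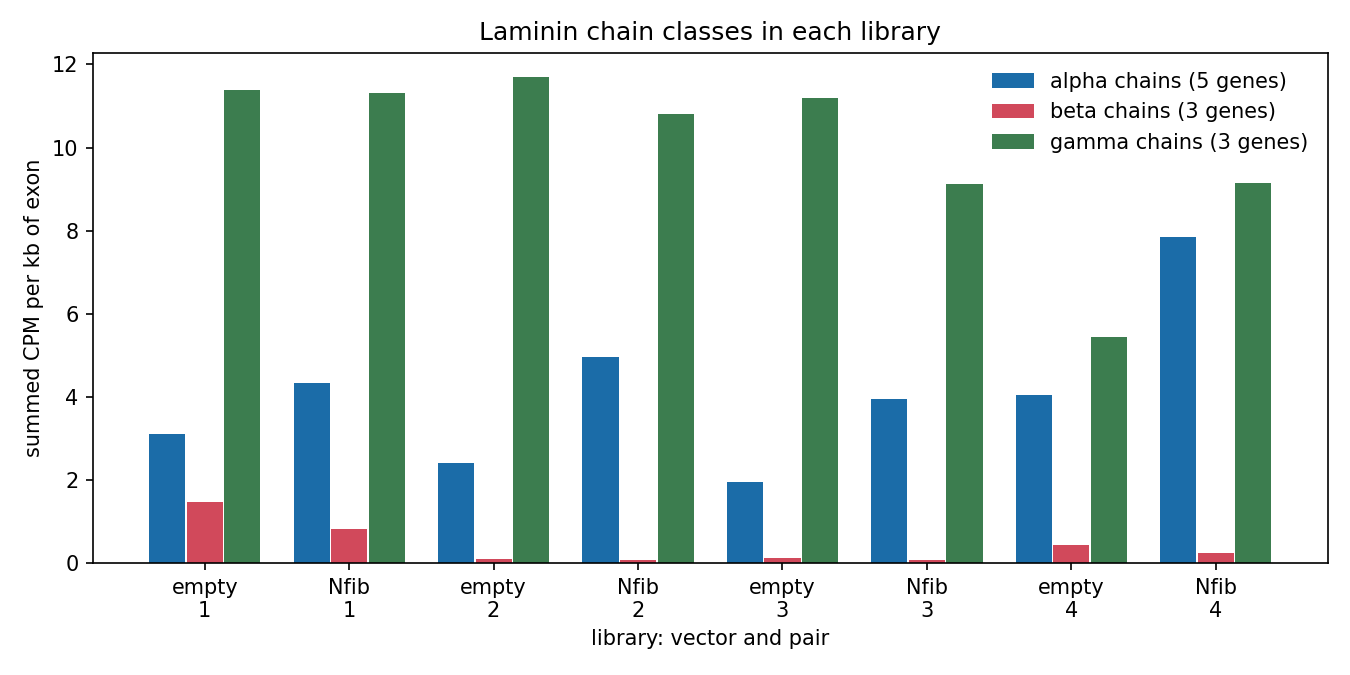
Summed CPM per kb of exon (vertical axis) of the laminin alpha, beta and gamma genes in each of the 8 libraries (horizontal axis), 1 bar per class. Gamma bars were the tallest and beta bars the shortest in every library, and the alpha bar was taller in the Nfib library of each pair.

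Lama5, the alpha 5 chain of the main laminins of adult epithelial and vascular basement membranes, rose with Nfib. The gene lies at chr2:180176373-180225859 on the minus strand (GRCm38). The empty vector libraries of pairs 1 to 4 had 32.7, 25.6, 22.3 and 44.3 CPM (31.2 ± 9.73, mean ± SD, n = 4), and the Nfib libraries had 47.3, 45.9, 44.6 and 87.3 CPM (56.3 ± 20.7, n = 4). Every Nfib library was above every empty vector library, narrowly so between the Nfib library of pair 3 and the empty vector library of pair 4. Only 0.516% of the 13380 genes tested had groups that did not overlap in either direction, and Lama5 was the 1 of 7 tested members among them. Within pairs the log2 ratio was 0.53, 0.84, 0.996 and 0.979, and the paired DESeq2 estimate was 0.83 ± 0.13 (SE, log2) with a Benjamini-Hochberg adjusted p of 3.96e-08. The DESeq2 call held with each of the 4 pairs left out in turn. As these are bulk samples, more cells with the transcript and more transcript per cell cannot be told apart here or below.

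Of the 7 members with enough counts to be tested, 3 rose with Nfib in the paired DESeq2 test and 0 fell, against 1.86% of all tested genes called higher, 2.20% called lower and 4.06% called in either direction. The members and this test were both chosen with earlier results of these data known, so the comparison with all genes is only a description. The risers were Lama5, Hspg2 and Col4a1, and 0 members were lower at an unadjusted p under 0.05 in this DESeq2 test. Without the 2 Lmyc3 pairs, DESeq2 called 0 members and 0.516% of all genes (adjusted p = 0.106 for Lama5, 0.900 for Hspg2 and 0.9999 for Col4a1), with all 3 estimates still above 0 (0.75, 1.52 and 1.22). The median log2 fold change of the 7 was 0.49, beside -0.0062 over all genes tested. Higher in all 4 pairs were 2 members (12.8% of all genes tested), and lower in all 4 pairs was 1 member (13.0%). edgeR's quasi-likelihood test without a block leaves out the pairing, so that differences between cultures enter its error. It called 0 members and 0 of all genes, with 1 member at an unadjusted p under 0.05. DESeq2 without a block called 0 members and 0.0224% of all genes, also with 1 member at an unadjusted p under 0.05. That fit gave no adjusted p for Hspg2 and Col4a1, so neither could be called in it. With the pair as a block edgeR also called 0 members, with 4 members at an unadjusted p under 0.05 (Lama5, Hspg2 and Col4a1 higher, Lamb2 lower) and a smallest adjusted p of 0.117 among them (Lama5), while the smallest over all genes was 0.0657 (Nfib itself).

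**Figure D2:**
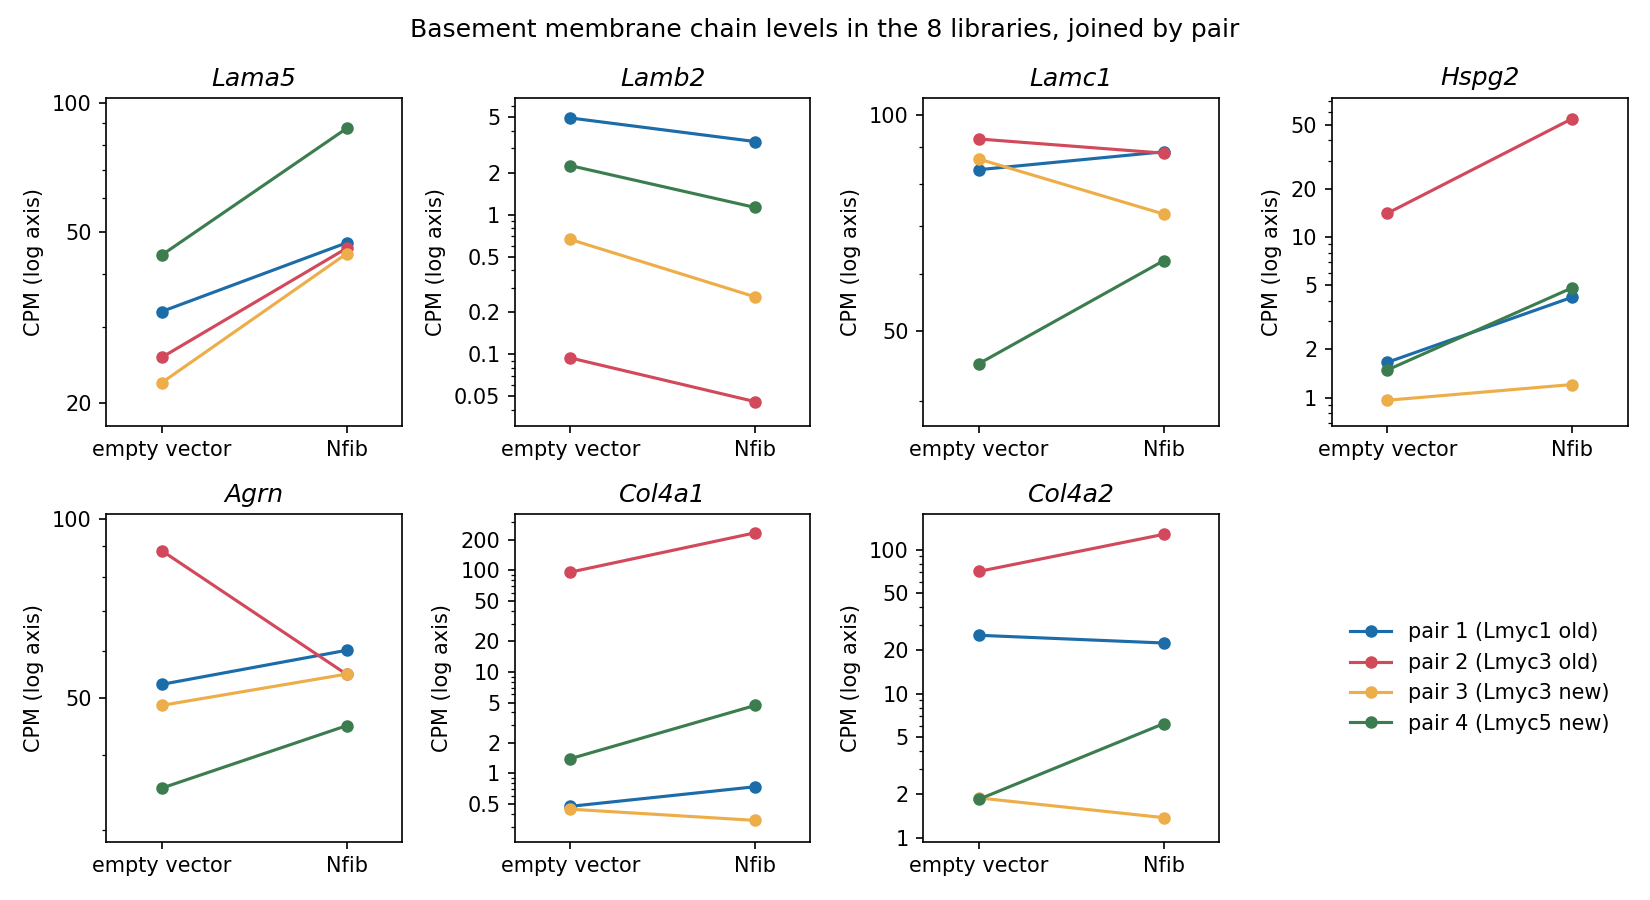
Level in CPM (vertical log axis) of the 7 tested genes with the empty vector and with Nfib, 1 panel per gene and 1 line per pair. Lama5 and Hspg2 lines go up in all 4 pairs, Lamb2 lines go down in all 4, and the Col4a1 and Col4a2 panels are spread mainly by culture.

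Lama1, the alpha 1 chain found mostly in embryonic basement membranes, was barely detected. Its locus is chr17:67697265-67822645, plus strand. It had 4 counts in each library of pair 2, 6 counts in the Nfib library of pair 4 and 0 in the other 5 libraries. Such counts allow no statement on a change.

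The beta chains were the least abundant laminin partners. Lamb1 (chr12:31265234-31329644, plus strand), the beta 1 chain that joins most laminins of epithelia and vessels, had 4, 6, 2 and 5 counts in the empty vector libraries of pairs 1 to 4 and 0, 3, 0 and 5 counts in the Nfib libraries. Lamb2 (chr9:108479862-108490530, plus strand), the beta 2 chain known from the glomerulus and the neuromuscular junction, was at 4.94, 0.0945, 0.667 and 2.25 CPM with the empty vector and at 3.35, 0.0459, 0.259 and 1.13 CPM with Nfib. Pair 1 was highest and pair 2 lowest in both groups, and the pair 2 values rest on 2 counts and 1 count. The Lamb2 log2 ratio was negative in all 4 pairs (-0.55, -0.46, -1.13 and -0.95), but the paired DESeq2 estimate of -0.93 ± 0.50 did not pass (adjusted p = 0.401), so no change with Nfib was shown. The remaining beta gene, Lamb3, held the larger part of the beta sum in pair 2, with 53.1% in the empty vector library and 74.5% in the Nfib library. These shares rest on few counts, with Lamb3 at 0.331 and 0.413 CPM, so no change in the beta mix can be read from them.

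Lamc1, the gamma 1 chain shared by most laminins, was the member with the highest mean level per kb and did not pass the test with Nfib. It lies at chr1:153218922-153332786 on the minus strand. The empty vector libraries had 83.8, 92.5, 86.7 and 45.0 CPM and the Nfib libraries 88.8, 88.4, 72.7 and 62.6 CPM. Pair 4 was the lowest in both groups, and the groups overlapped. The paired DESeq2 log2 estimate was 0.05 ± 0.14 (adjusted p = 0.959), with 2 of 4 pairs higher. The ratio of Lama5 to Lamc1 per kb of merged exon was 0.283, 0.201, 0.187 and 0.714 in the empty vector libraries and 0.387, 0.377, 0.445 and 1.01 in the Nfib libraries. It was higher with Nfib in each pair and highest in pair 4, where both chains were at about the same level after Nfib by this measure. That near equality depends on the length used. Lamc1 has 8272 bases of merged exon but 4913 of coding sequence, while Lama5 has 11388 and 11154.

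Of the proteoglycans, agrin had the higher transcript level in every library. Perlecan, the product of Hspg2, is a large proteoglycan that links laminin networks to collagen IV and holds fibroblast growth factors. Hspg2 lies at chr4:137468769-137570630 on the plus strand. It was at 1.66, 14.1, 0.963 and 1.49 CPM in the empty vector libraries of pairs 1 to 4 and at 4.22, 54.7, 1.21 and 4.83 CPM in the Nfib libraries. Both libraries of pair 2 were above all 6 others, and the groups overlapped because the cultures lay so far apart. Hspg2 rose with Nfib, with log2 ratios of 1.30, 1.95, 0.30 and 1.65 in the pairs and a paired DESeq2 estimate of 1.40 ± 0.32 (adjusted p = 0.000919). In pair 3 the counts were 26 and 28. Without pair 2 the estimate was 1.15 and no longer passed (DESeq2 adjusted p = 0.342).

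Agrin, which clusters acetylcholine receptors at the neuromuscular junction and is also a component of lung and kidney basement membranes, showed no detected change with Nfib. Agrn lies at chr4:156165290-156197488 on the minus strand. The empty vector libraries had 52.7, 88.5, 48.6 and 35.2 CPM and the Nfib libraries 60.1, 54.8, 54.8 and 44.9 CPM. The 4 Nfib values lay within the range of the empty vector values. The log2 ratio was 0.19, 0.17 and 0.35 in pairs 1, 3 and 4 and -0.69 in pair 2, and the DESeq2 estimate was -0.00075 ± 0.20 (adjusted p = 0.9999), a value that turned positive without pair 2 (0.23, adjusted p = 0.478). Agrn exceeded Hspg2 per kb in every library, from 9.68 to 77.7 times with the empty vector and from 1.54 to 70.0 times with Nfib. The share of Hspg2 in the per-kb sum of both proteoglycans was 2.003, 9.36, 1.27 and 2.67% with the empty vector and 4.36, 39.3, 1.41 and 6.53% with Nfib. It was higher in 4 of 4 pairs, with a mean difference of 9.07 ± 14.0 percentage points (SD, n = 4), and the exact two-sided sign-flip permutation test gave p = 0.125, the smallest value 4 pairs allow (0.625 after Benjamini-Hochberg adjustment over the 5 shares examined). Without pair 2 the mean difference was 2.12 percentage points.

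**Figure D3:**
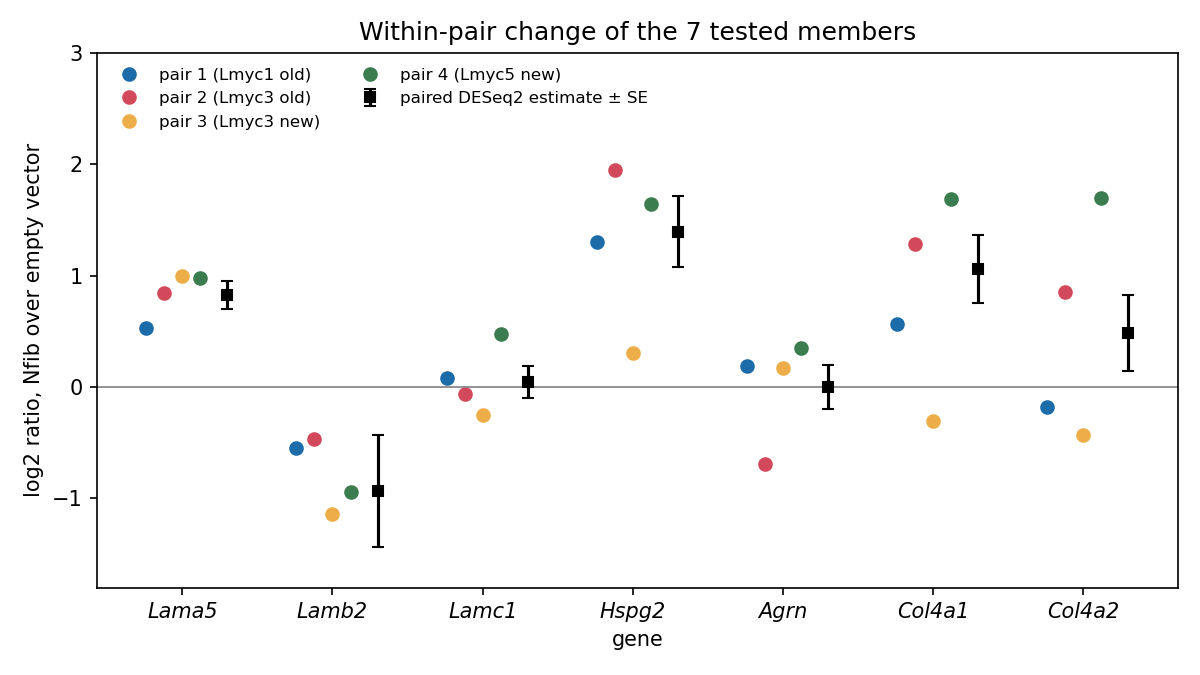
Log2 ratio of Nfib over empty vector (vertical axis) for the 7 tested genes, with 1 colored point per pair and a black square with bars for the paired DESeq2 estimate ± SE. All 4 points are above 0 for Lama5 and Hspg2 and below 0 for Lamb2, and points of Col4a1 and Col4a2 lie on both sides.

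Collagen IV transcripts differed more between cultures than with Nfib. Col4a1 and Col4a2, which encode the alpha 1 and alpha 2 chains, lie head to head on chromosome 8 (Col4a1 at chr8:11198423-11312826, minus strand, and Col4a2 at chr8:11312805-11449287, plus strand) and share 22 bases at their starts. Since the strand setting of the counting is not given, reads from those bases cannot be assigned to either gene. Col4a1 was at 0.474, 96.3, 0.445 and 1.40 CPM in the empty vector libraries and at 0.740, 234.8, 0.345 and 4.68 CPM in the Nfib libraries. The 2 libraries of pair 2 were far above the other 6, and the empty vector library of pair 2 was 217-fold above that of pair 3, although both are labelled Lmyc3. In pairs 1 and 3 Col4a1 had only 8 to 17 counts in a library.

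Col4a1 rose with Nfib in the paired DESeq2 test (1.06 ± 0.30, adjusted p = 0.0193), with log2 ratios of 0.56, 1.29, -0.30 and 1.69 in the pairs. The call was lost without pair 2 (0.74, adjusted p = 0.941) and without pair 4 (0.81, adjusted p = 0.317). In pair 2 the change was from 2038 to 5112 counts and in pair 4 from 31 to 120 counts. Col4a2 was at 25.5, 70.8, 1.89 and 1.85 CPM with the empty vector and at 22.5, 128, 1.38 and 6.20 CPM with Nfib. It was higher with Nfib in pairs 2 and 4 (log2 ratios of 0.85 and 1.70) and lower in pairs 1 and 3 (-0.18 and -0.43), the estimate of 0.49 ± 0.34 did not pass (DESeq2 adjusted p = 0.598), and the groups overlapped. With a pair left out the estimate ran from 0.13 (without pair 4) to 0.76 (without pair 3).

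Although the chains are joined in 1 trimer, their transcripts were not in a fixed ratio. The ratio of Col4a1 to Col4a2 per kb was 0.0165, 1.20, 0.209 and 0.671 in the empty vector libraries and 0.0291, 1.62, 0.222 and 0.669 in the Nfib libraries. Pair 1 carried Col4a2 almost alone, at 753 counts against 14 of Col4a1, so that Col4a2 was 98.2% of their summed counts (95% exact Clopper-Pearson interval 97.0 to 99.0%). In pair 2 it was 42.4% (40.8 to 44.0%) with the empty vector and 35.3% (34.3 to 36.4%) with Nfib. These intervals cover counting error within 1 library only. Per kb, the Col4a2 share went from a mean of 71.6% with the empty vector to 69.3% with Nfib, a difference of -2.33 ± 3.33 percentage points (SD, n = 4; exact sign-flip permutation p = 0.25, adjusted p = 0.625), and of -0.68 without pair 2. Col4a5 (chrX:141475385-141689234, plus strand), the alpha 5 chain of kidney and lung basement membranes, had 1 count in each library of pair 2 and 0 in the other 6.

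**Figure D4:**
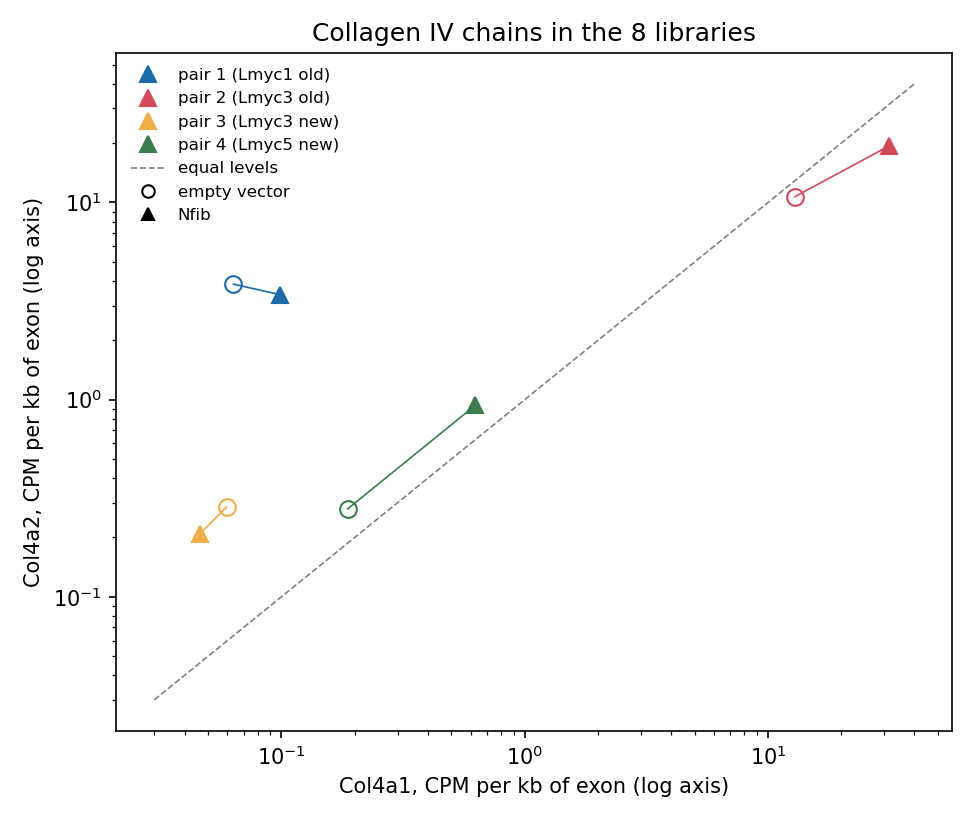
Col4a1 (horizontal log axis) against Col4a2 (vertical log axis), both in CPM per kb of exon, with an open circle for the empty vector and a triangle for Nfib, joined within each pair. Pair 2 lies at the upper right below the line of equal levels, and pair 1 lies far above that line.

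The 4 cultures thus held distinct chain mixes. Of the summed CPM per kb of the 10 genes, Lamc1 took the largest share in pairs 1, 3 and 4 with the empty vector (43.1, 57.6 and 38.6%). Agrn followed in pairs 1 and 3 (24.1 and 28.7%). In pair 4 Lama5 (27.6%) and Agrn (26.9%) followed at about the same share. In pair 2 the largest shares were 27.1% for Col4a1, 23.5% for Lamc1 and 22.5% for Col4a2. With Nfib, Lama5 came to 34.5% in pair 4, level with 34.1% for Lamc1. Col4a1 came to 41.8% in pair 2, where Agrn held 7.84% after 20.0% with the empty vector. The near-equal shares in pair 4 depend on the use of merged exon length. Coding sequence is 11154 of 11388 such bases for Lama5, but 4913 of 8272 for Lamc1 and 6353 of 9285 for Agrn. The summed level of the 10 genes was 23.5, 47.6, 18.2 and 14.1 CPM per kb with the empty vector and 25.7, 75.3, 18.99 and 22.2 with Nfib.

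**Figure D5:**
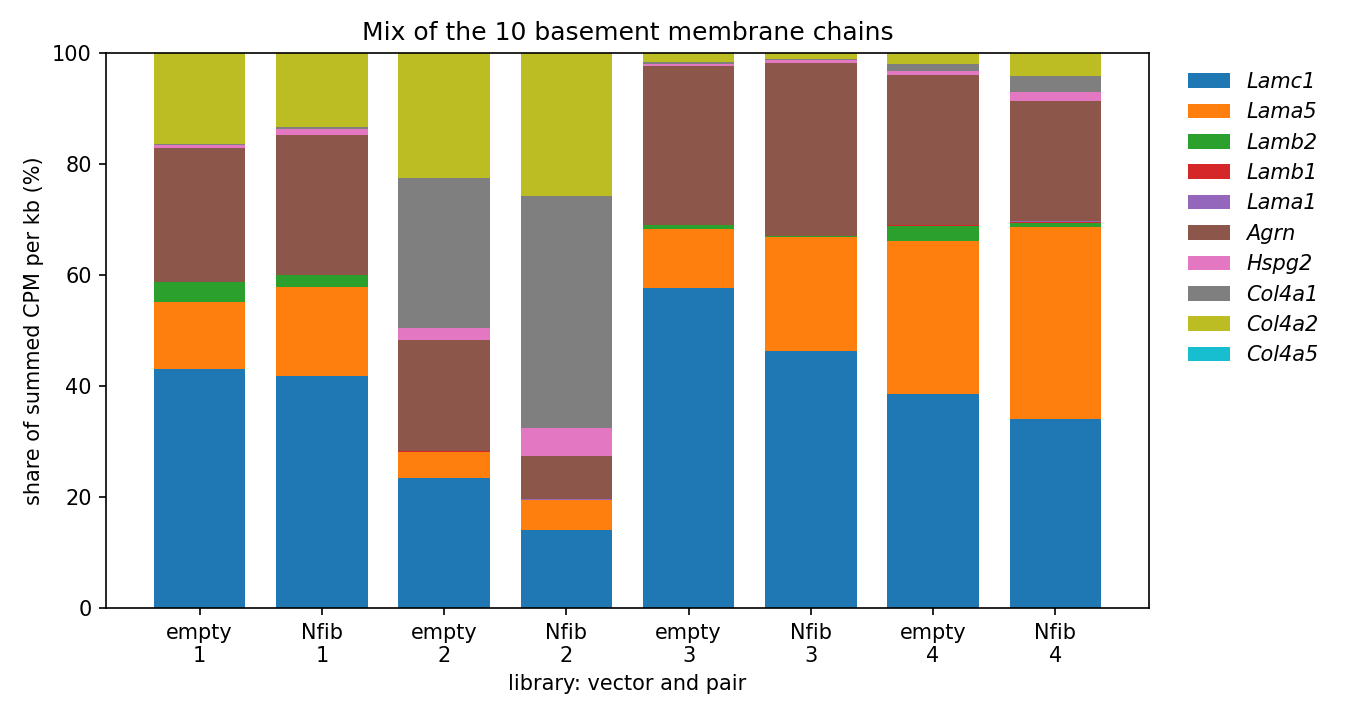
Share of each of the 10 genes in their summed CPM per kb of exon (vertical axis, %) in each of the 8 libraries (horizontal axis), stacked. Lamc1 is the largest block in pairs 1 and 3, Lamc1 and Lama5 are about equal in the Nfib library of pair 4, and Col4a1 is the largest in pair 2.

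By mean CPM per kb over the 4 empty vector libraries the order was Lamc1 (9.31 ± 2.61, SD), Agrn (6.06 ± 2.45), Col4a2 (3.78 ± 4.91), Col4a1 (3.30 ± 6.40), Lama5 (2.74 ± 0.854), Lamb2 (0.327 ± 0.357) and Hspg2 (0.318 ± 0.445), with Lamb1, Lama1 and Col4a5 at 0.0181 or less. The differences between neighbours from Agrn to Hspg2 were smaller than the larger SD of the 2 genes, except for Lama5 over Lamb2. In a DESeq2 likelihood ratio test of the culture, with the 2 libraries of a culture standing in as its replicates, 7 of 7 tested members differed between cultures, beside 77.9% of all genes tested. The largest adjusted p among them was that of Agrn (0.0341), followed by Lamc1 (0.00185). Without pair 4, the calls of Lama5, Lamc1 and Agrn were lost and 4 of 7 remained, beside 60.8% of all genes in that fit. Without pair 2, the Hspg2 call was lost and 6 of 7 remained, beside 60.8% of all genes in that fit. The Agrn call was also lost with total counts and with edgeR.

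The spread between empty vector cultures split the members in 2 sets, as a description. From the lowest to the highest culture, Lama5, Lamc1 and Agrn spanned 0.99, 1.04 and 1.33 on the log2 scale, near the median of 0.96 over all genes tested. Hspg2, Lamb2, Col4a2 and Col4a1 spanned 3.76, 4.83, 5.20 and 7.51, and 11.8, 7.3, 6.19 and 1.73% of genes spanned more. The Hspg2 span came mostly from pair 2, at 14.1 CPM beside 0.963 to 1.66 CPM in the other empty vector cultures. Old exceeded new Lmyc3 cultures with the empty vector by 7.51 for Col4a1, 5.17 for Col4a2 and 3.76 for Hspg2 (log2), while Lama5 was close (0.20) and so was Lamc1 (0.09). Lamb2 was at 2 counts in the old and 18 counts in the new culture, so its span and difference depend on the prior count. Across the 8 libraries, which share cultures, the log2 CPM of Hspg2 had r = 0.94 with Col4a1 and 0.85 with Col4a2, Col4a1 and Col4a2 had r = 0.75, Lamc1 and Agrn had r = 0.79, and Lama5 had r = 0.03 with Col4a1. The values of r did not follow the 2 sets throughout. Within a set, Lamb2 had r = -0.72 with Col4a1 and -0.61 with Hspg2. Lama5 had r = -0.47 with Lamc1 and -0.41 with Agrn. Between sets, Col4a2 had r = 0.63 with Agrn and 0.60 with Lamc1. Hspg2, Col4a1 and Col4a2 were all highest in the libraries of pair 2. An interaction of Nfib with the words old and new passed for 0 of 7 tested members in DESeq2, beside 0.0523% of all genes (0 members at an unadjusted p under 0.05).

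Genes whose log2 CPM was most like that of a member over the same 8 libraries were taken as a description. For Lama5 they were Plekhg2 (r = 0.94), Nedd9 (0.93) and Mgat4b (0.93). For Hspg2 they were Pus10 (0.99), Pus7l (0.98) and Tpmt (0.98), and for Col4a1 they were Rtn4, Osr2 and Mat2b (0.99 each). Hspg2 and Col4a1 companions were high in pair 2: Rtn4 had 207 and 236 CPM there and at most 125 CPM elsewhere. For Lama1, at 6 counts or fewer in every library, no such pattern can be read, although Islr (0.97), C920006O11Rik (0.95) and Astn2 (0.94) had the highest r.

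Of 29 other basement membrane genes listed, 16 were tested, 1 rose, 1 fell, and the median log2 fold change was 0.20. For this and each list below, the shares over all genes tested were 1.86% called higher and 2.20% called lower. Ltbp1, a binder of latent TGF-beta, rose by 1.55 ± 0.44 (DESeq2 adjusted p = 0.0193), and Ntn4, a netrin that binds laminin gamma chains, fell by 0.79 ± 0.23 on the log2 scale (adjusted p = 0.0236). Ntn4 was at 98.0, 38.9, 184.6 and 124 CPM with the empty vector and at 88.7, 12.1, 119 and 75.9 CPM with Nfib, lower in each pair. Both calls were lost without pair 3 and without pair 4.

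Among 24 tested of 27 listed receptors and their partners, 3 rose and 0 fell in DESeq2 (2 lower at an unadjusted p under 0.05), with a median of 0.13. Itga1, the alpha 1 integrin that binds collagen IV, was at 0, 0.992, 0 and 1.04 CPM with the empty vector and at 0.696, 5.10, 0.431 and 8.38 CPM with Nfib, and rose by 3.52 ± 0.75 (DESeq2 adjusted p = 0.000311), a fitted value that is no bound on the fold, since 2 libraries were at 0. This call held with each pair left out. Ddr1, a collagen receptor kinase, rose by 0.25 ± 0.08 (adjusted p = 0.0453) and Dmd, dystrophin, by 1.39 ± 0.43 (adjusted p = 0.0354), but kept the call in 0 and 1 of 4 fits with a pair removed. The main laminin receptor chains Itgb1 (-0.25 ± 0.10, adjusted p = 0.132) and Itga6 (-0.66 ± 0.25, adjusted p = 0.135) did not pass.

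Of 25 genes for collagen folding and modification, 18 were tested, 2 rose and 0 fell in DESeq2 (1 lower at an unadjusted p under 0.05), with a median of 0.0079. P3h2, a prolyl 3-hydroxylase that acts on collagen IV, was at 0, 34.7, 1.41 and 2.43 CPM with the empty vector and at 0.0435, 67.5, 5.35 and 6.04 CPM with Nfib, highest in pair 2 like Col4a1, and rose by 1.38 ± 0.31 (DESeq2 adjusted p = 0.00103). Sec24d, a coat protein of the vesicles that carry procollagen, rose by 1.64 ± 0.44 (adjusted p = 0.00906). P3h2 lost its call without pair 2 or pair 3, and Sec24d without pair 1 or pair 2.

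Of 21 genes for heparan sulfate chains, which perlecan and agrin carry, 20 were tested, 0 rose in DESeq2 (0 higher at an unadjusted p under 0.05) and 1 fell, with a median of -0.073. Ndst1, the sulfotransferase that starts chain modification, fell by 0.36 ± 0.08 on the log2 scale (DESeq2 adjusted p = 0.00101) and kept its call in 1 of 4 fits with a pair removed. Of 25 matrix proteases and inhibitors, 17 were tested, 2 rose and 1 fell, with a median of 0.087. Mmp15, a membrane-bound metalloprotease, was at 12.1, 22.2, 27.0 and 41.7 CPM with the empty vector and at 28.9, 30.04, 59.9 and 74.0 CPM with Nfib, and rose by 0.91 ± 0.17 (DESeq2 adjusted p = 2.96e-05), a call that held with each pair left out. Adamts9, a secreted protease, rose by 3.08 ± 0.95 (adjusted p = 0.0345) and Ctsl, cathepsin L, fell by 0.40 ± 0.11 (adjusted p = 0.0117), with the call kept in 0 and 1 of those 4 fits. Adamts9 was at 0 CPM in the empty vector libraries of pairs 1 and 3, so its fitted value is no bound on the fold.

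Markers of other cell types that make basement membrane were low. Of 11 fibroblast and pericyte markers, 9 had a mean under 1 CPM, and Col1a1, Col1a2, Col3a1, Dcn and Lum had at most 6 counts in any library. Their sum was 6.71 to 16.0 CPM with the empty vector and 4.22 to 39.96 CPM with Nfib, mostly Thy1 and Pdgfra. Thy1 was at 4.72 CPM with the empty vector and 36.5 CPM with Nfib in pair 2, the pair in which Hspg2 and Col4a1 were highest, and its part in those results was not tested. The 9 endothelial markers summed to 3.54 to 7.26 CPM and 4.05 to 9.35 CPM, led by Erg and Kdr, with Cdh5 at no more than 1 count and Pecam1 at no more than 10. Kdr was at 0.0945 CPM or less with the empty vector and at 5.74 and 6.47 CPM in the Nfib libraries of pairs 2 and 3. Of 8 leukocyte markers 6 were in the table used here, and these summed to 1.56 to 2.52 CPM and 1.81 to 2.49 CPM, led by Cd68 and Lyz2, with Ptprc at no more than 1 count. Only 2 fibroblast, 1 endothelial and 1 leukocyte marker entered the test, and 0 of these 4 rose or fell in DESeq2 (1, the endothelial Erg, lower at an unadjusted p under 0.05).

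Epithelial markers had very different levels in the 4 cultures. Of 9 epithelial markers 6 were tested, and 0 rose or fell with Nfib in DESeq2 (2 at an unadjusted p under 0.05, 1 in each direction). Their sum was 18.2 to 2975 CPM with the empty vector and 14.2 to 2696 CPM with Nfib, led by Krt8 and Cdh1. Krt8 was at 399, 49.5, 1291 and 1.04 CPM in the empty vector libraries of pairs 1 to 4, and at 405, 39.6, 1234 and 0.701 CPM with Nfib. The lower Krt8 pairs, 2 and 4, were those in which Col4a1 and Col4a2 were both higher with Nfib, and a link between these was not tested. Among 10 tested SCLC and neuroendocrine markers, 0 rose in DESeq2 (0 higher at an unadjusted p under 0.05) and 2 fell with Nfib. On the log2 scale, Nkx2-1 fell by 0.39 ± 0.11 (DESeq2 adjusted p = 0.0122) and Eno2 by 0.51 ± 0.15 (adjusted p = 0.0268). Nkx2-1 lost its call without pair 3 or pair 4, and Eno2 kept its call in 1 of 4 fits with a pair removed and not with total counts (adjusted p = 0.0531). The sum of that list was 3167 to 4971 CPM with the empty vector and 2206 to 4605 CPM with Nfib.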

How the data were processed

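The authors deposited raw read counts per Ensembl gene for the 8 libraries, in 1 table with symbols and coordinates. Per the labels' protocols, RNA libraries came from an Illumina TruSeq kit. The submitters' processing notes name DESeq2, SAMtools 0.1.19, Bowtie 1.0.0 and TopHat2 2.1 beside GRCm38 (mm10). How reads were counted, with which strand setting and annotation, is not given in the sources used here.

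Pair numbers were read from sample titles and the vector from the source field. The members and lists were chosen with earlier results of these data known. CPM used TMM factors (edgeR 4.0.16, R 4.3.3), within-pair log2 ratios a prior count of 2, and per-kb levels merged exon lengths of a GRCm38 annotation, which held 22423 of the 22691 identifiers. edgeR's expression filter kept 13380 genes. edgeR's quasi-likelihood test without a block, planned first, called no gene (83 at an unadjusted p under 0.05), so rises and falls are those of a paired DESeq2 1.42.0 Wald test with the pair as block, adjusted by Benjamini-Hochberg over all genes at 0.05 (260 genes had no adjusted p). That DESeq2 test was chosen with its results known. limma 3.58.1 served as an alternative. Pairing follows the labels, where a number stands for 1 line in both groups, and was checked: deviations from group means correlated at 0.91, 0.88, 0.94 and 0.93 within numbers and at most 0.06 otherwise. Scripts were tested on simulated data. Of each list, genes past the paired test were named, of each marker list also the 2 highest (1 of these is not reported here), and per member the 3 genes of highest r with a mean of at least 1 CPM. Itgb1, Itga6, Lamb3 and single marker genes at low counts were named after their values were seen.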

Additional observations from a re-analysis of the deposited data

Results flagged for a closer look

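In 21 groups of 4 values (the level of each tested member in each vector group, and its 4 within-pair log2 ratios), 3 held a value whose gap to its nearest neighbour exceeded Dixon's 95% critical value, as a share of the group's range. Chance alone flags about 1 in 20 such groups. The Lama5 level in the Nfib library of pair 4 was 87.3 CPM, above the 44.6 to 47.3 CPM of the other Nfib libraries. The Lamc1 level in the empty vector library of pair 4 was 45.0 CPM, below the 83.8 to 92.5 CPM of the other empty vector libraries. The Agrn log2 ratio of pair 2 was -0.69, while the other pairs were at 0.17 to 0.35.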

How the results depend on the processing

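The count of members called in the paired DESeq2 test (3) depended on the fit. The share of all genes called is given beside each count. Without the replicate block it was 0 (0.0224%), with the line as block 1 (Lama5; 0.262%), with edgeR and the replicate block 0 (0%), with limma voom and the replicate block 0 (0.0224%; adjusted p of 0.0585 for Lama5, 0.0623 for Hspg2 and 0.0607 for Col4a1), and without both Lmyc3 pairs, an alternative chosen after seeing the data, 0 (0.516%). Leaving out each pair in turn gave 1 to 3 (1.76 to 2.86%). edgeR without a block called 0 members in its other settings and 1 (Lama5, adjusted p = 0.0476; 0.329%) in its bias-adjusted form with the replicate block. The count of members that differed between cultures (7) was 4 to 7 with a pair left out (58.3 to 63.2%), and 6 with total counts (77.5%) and with edgeR (76.7%), both without Agrn. The Agrn estimate near 0 turned positive with the Lmyc3 pairs summed (0.0803), edgeR with the block (0.0061), TMM factors (0.0076), total counts (0.034), a filter of 1 CPM in 4 libraries (0.00072), without pair 2 (0.23) and without both Lmyc3 pairs (0.27), and was -0.11 to 0.23 with a pair left out. The Lamc1 estimate was -0.083 to 0.16 with a pair left out, below 0 without pair 4. Mean share differences ran from -0.105 to 0.131 percentage points for Lama5 and from -0.711 to 2.68 for Lamb2, 2.12 to 12.1 for Hspg2 and -3.12 to -0.68 for Col4a2 with a pair left out. Lama5, Hspg2 and Col4a1 stayed positive in all alternatives that gave an adjusted p (14, 13 and 13) and passed in 10, 8 and 7. For Hspg2 and Col4a1 the missing alternative was DESeq2 without the replicate block, where neither could be called. Depth limits Lama1, Lamb1 and Col4a5, with at most 6 counts in every library.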

Other observations

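Minor laminin chains stood out in single libraries. Lamc3, the gamma 3 chain, had 9.55 CPM in the Nfib library of pair 4 and 0.172 CPM or less in the other 7 libraries, and did not enter the test. Lama2, the alpha 2 chain of muscle and nerve basement membranes, had 12.1 CPM in the Nfib library of pair 2 and 2.08 CPM in its empty vector library, and did not pass over all pairs (0.64 ± 0.67, DESeq2 adjusted p = 0.793).

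Serpinh1, which encodes the collagen chaperone HSP47, had at most 4 counts in any library and 0 in the 4 empty vector libraries, including that of pair 2, which had 2038 counts of Col4a1. Nid1, a nidogen that links laminin to collagen IV, had 1.23 and 4.09 CPM in pair 2 and 0.102 and 0.0870 CPM in pair 1. It had 1.35 and 2.96 CPM in pair 4, so this level was not particular to pair 2. The other nidogen, Nid2, went the other way, with 5.42 and 5.83 CPM in pair 1 and 0.472 and 0.413 CPM in pair 2. The genes of both paragraphs were chosen after their values were seen.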
